A study of Elaeis guineensis with 58 samples.

Results

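Spear leaf RNA extracted with CTAB gave libraries richer in plastid transcripts and in reads assigned to nuclear TRNA rows than RNA extracted with the InnuPREP kit from the same 6 oil palms, and poorer in the most abundant nuclear transcripts. These 12 libraries, 1 CTAB and 1 InnuPREP library for each palm, were taken from the 58 libraries of the series because their palm tree identifier appeared with both extraction methods. CTAB (cetyltrimethylammonium bromide) is a detergent long used to extract nucleic acids from plant tissue rich in polysaccharides and phenolics, and InnuPREP is a commercial plant RNA kit. All 12 libraries came from the spear leaf (frond F0), the youngest unopened frond, of oil palm (Elaeis guineensis) ortets supplied by agency L2. An ortet is a palm chosen as the donor of tissue for clonal propagation.

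The palms differed in how many embryoid lines they had yielded in culture, which is what the series as a whole compared. Palm 1 was a high palm of genotype Jen Avros with 534 lines, and palm 4 a high palm of genotype Jen Avros Yangambi with 191 lines. Palms 2 and 3 were zero palms of genotype Yangambi_A with 0 lines. Palms 5 and 6 were low palms of genotype Yangambi_B with 2 and 35 lines. Genotype therefore followed the embryogenesis group in these palms, with 2 palms in each group, but extraction method did not. Both kinds of RNA had the same on-column DNase step and the same 3' end library kit (QuantSeq FWD), per the labels' protocols. The labels do not say whether the 2 libraries of a palm came from the same piece of leaf, or were prepared and sequenced together, so extraction method and any such difference cannot be told apart. For the same reason p-values measure the spread between palms with 1 library per palm and method.

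A plant cell holds RNA from its nucleus and from its plastids. Nuclear messenger RNAs carry a long poly(A) tail, which an oligo(dT)-primed 3' end library relies on, whereas plastid messages are cut from multi-gene precursors, mostly lack such a tail and receive short A-rich tails when they are degraded. Transfer RNAs are short, folded and highly modified, and carry no poly(A) tail either. Read counts of plastid and tRNA genes from these libraries are therefore measures of what was captured, and how well each was captured was not tested.

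Gene counts were 4215872 to 7580573 per CTAB library and 8773354 to 14661769 per InnuPREP library, lower in CTAB in every palm. The root mean square log2 distance between the 2 libraries of a palm was 0.70 to 0.89, with a median of 0.75. It was 0.89 to 1.24 between CTAB libraries of different palms, with a median of 1.05, and 0.74 to 1.23 between InnuPREP libraries of different palms, with a median of 0.93, so these ranges met or overlapped that of the same palm. The second principal component, with 19.1% of the variance, placed all 6 CTAB libraries below 0 and all 6 InnuPREP libraries above 0. The first, with 26.9%, mainly ordered palms, but in every palm the CTAB library also lay above the InnuPREP library on it. The tissue label could not be set against cell type markers, because the gene table used gives no product names for the nuclear identifiers.

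With the palm as a block, edgeR called 11198 of 20803 genes at an adjusted p below 0.05, which is 53.8% of those tested. Of these, 5262 were higher in CTAB (25.3%) and 5936 lower (28.5%). Levels are given in CPM, reads scaled to a common library total and adjusted by TMM, and log2 differences below are CTAB minus InnuPREP, with a median of -0.03 over all genes. A test against a minimum fold change of 2 called 471 genes, 271 higher and 200 lower in CTAB (edgeR glmTreat). The log2 ratios of the 20803 genes in 1 palm correlated with those of each other palm at a Pearson r of 0.44 to 0.69, as a description over genes. Palm 1 had the lowest mean correlation with the others, 0.53, and palm 4 the highest, 0.66.

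Plastid genes took 4.42%, 6.22%, 6.78%, 6.83%, 5.37% and 7.80% of gene counts in the CTAB libraries of palms 1 to 6. In the InnuPREP libraries of the same palms the shares were 2.30%, 2.93%, 3.44%, 3.37%, 2.30% and 4.41%. The lowest CTAB share, in palm 1, was just above the highest InnuPREP share, in palm 6, so the groups did not overlap. The means were 6.24% ± 1.19 and 3.13% ± 0.8 (SD, n = 6 each), a ratio of 2.00, and the share was higher in CTAB in 6 of 6 palms (two-sided exact paired permutation test, p = 0.03125, adjusted p = 0.0344 over 11 library measures). That p is the smallest that 6 palms can give. As a share of all reads in the table, unassigned reads included, the difference was 1.12 percentage points (exact p = 0.03125), at 2.99% to 4.07% in CTAB and 1.77% to 3.03% in InnuPREP libraries. On that scale the ratio of the means was 1.47 and the groups overlapped. In RNA from whole leaf tissue, fewer cells of a type and less RNA per cell cannot be told apart. Absolute plastid counts, which also depend on sequencing depth, overlapped, at 321057 to 431616 reads in CTAB and 314678 to 481228 in InnuPREP libraries.

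**Figure D1:**
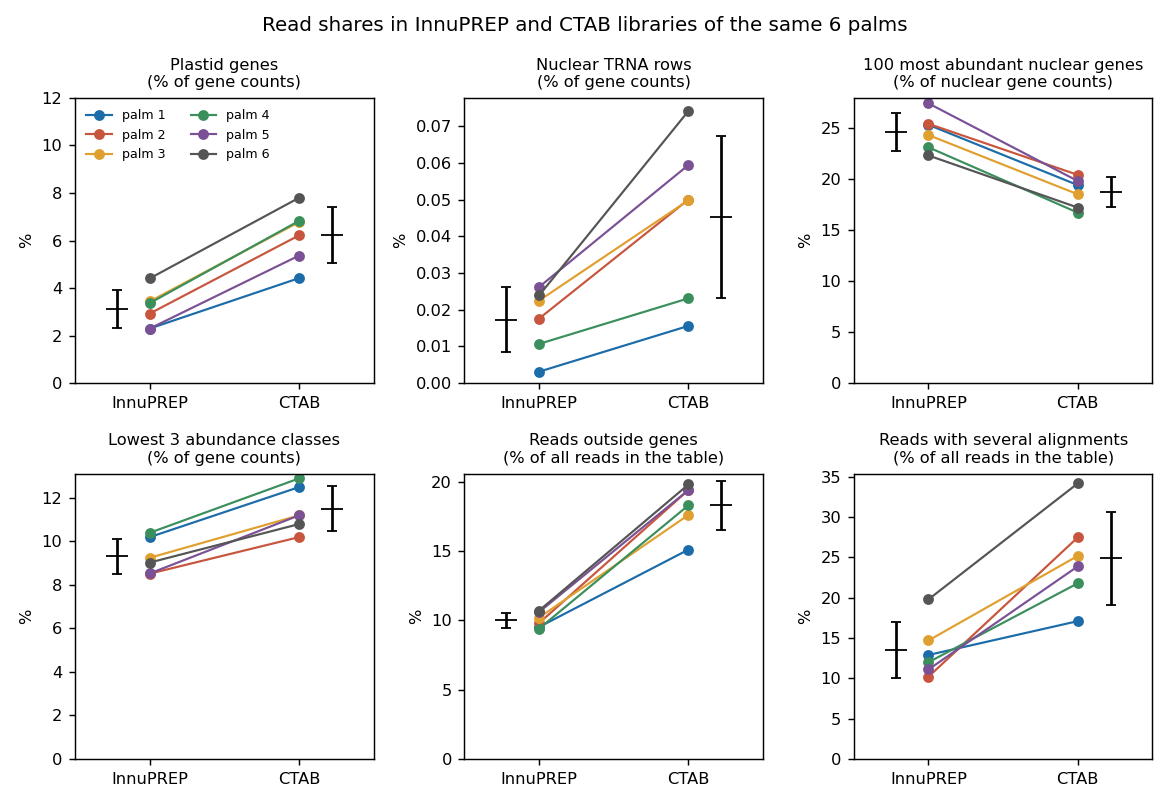
Shares of reads (%) in the InnuPREP and CTAB library of each palm, joined by a line, with the mean and SD of each method beside them (n = 6 each); gene counts are reads assigned to a gene. All 6 lines rise in 5 panels and fall in the panel of the 100 most abundant nuclear genes, where means were 24.6% in InnuPREP and 18.7% in CTAB.

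Of the plastid rows, 88 passed the filter on low counts and 24 did not. Among these 88, 59 were higher in CTAB (67%), 3 lower and 26 not called, with a median log2 difference of 0.90. Over all genes tested 25.3% were higher and 28.5% lower. Some of the 59, petL, ndhE and trnF-GAA among them, passed the filter only because of their CTAB libraries, so their calls are no support. In 28 of the 88 the CTAB libraries all lay above the InnuPREP libraries, and in 1 they all lay below; over all genes tested these shares were 4.38% and 3.15%. The 24 rows not tested had at most 67 reads over the 12 libraries, and 13 of them had none. Of these 24, 18 have more than 1 entry in the EG11 gene table, among them the 4 plastid ribosomal RNA rows, so their low counts say nothing about those RNAs.

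Ribosomal proteins belong to the plastid's own translation machinery, and their list held the largest number of genes with groups apart, 11 of 17. In the shorter list of other proteins 6 of 8 were apart. Of 17 ribosomal protein genes tested, 12 were higher in CTAB, 0 lower and 5 not called, with a median of 1.58. The gene rps14, for a protein of the small ribosomal subunit, stood at 1468, 2768, 3130, 2440, 2580 and 4614 CPM in CTAB and at 246, 311, 359, 306, 314 and 414 CPM in InnuPREP libraries. Its groups lay far apart, and its InnuPREP values varied little between palms. The fitted log2 difference was 3.06 ± 0.11 (SE; edgeR adjusted p = 4.99e-14), from means of 2833 ± 1034 CPM and 325 ± 56.6 CPM (SD, n = 6). It took 3.88% to 6.42% of plastid counts in CTAB libraries and 0.87% to 1.16% in InnuPREP libraries. The gene rps15 differed by 3.01 ± 0.36 on the log2 scale (edgeR adjusted p = 0.000624), with CTAB values of 37.1 to 116 CPM and InnuPREP values of 4.93 to 16.6 CPM. Palm 6 had both the lowest CTAB value and a high InnuPREP value for it. The most abundant gene of this list, rps16, was higher by 0.88 ± 0.1 (edgeR adjusted p = 3.65e-07), at 3599 ± 716 CPM against 1990 ± 549 CPM. Against these, rpl14, rpl16, rpl20, rpl22 and rps2 were not called, at log2 differences of 0.35, 0.21, 0.58, -0.21 and -0.26.

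Transcription and the remaining protein genes followed. The plastid-encoded RNA polymerase has 4 plastid-encoded subunits here, and 3 of their 4 genes were higher in CTAB, with a median of 0.74. For the alpha subunit gene rpoA, CTAB libraries held 265 to 425 CPM and InnuPREP libraries 54.2 to 139 CPM, without overlap, a difference of 1.91 ± 0.11 (edgeR adjusted p = 1.01e-10). The gene rpoC1 was higher by 1.14 ± 0.09 and rpoC2 by 0.33 ± 0.11, with edgeR adjusted p-values of 5.84e-09 and 0.0116, and rpoB was not called at 0.02. The call of rpoC2 was lost without palm 3, 4 or 5. All 8 tested genes of the list of other proteins were higher, with a median of 1.27 and the smallest spread between palms of any plastid protein list, at an SD of 0.06 over the 6 palm medians. Among them cemA, for an envelope membrane protein, was higher by 1.72 ± 0.19, ccsA, for cytochrome c assembly, by 1.61 ± 0.11, and ycf3, for photosystem I assembly, by 1.47 ± 0.1. The gene of the protease subunit clpP, the most abundant of the list, stood at 4266 ± 665 CPM against 2576 ± 325 CPM, with groups apart.

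**Figure D2:**
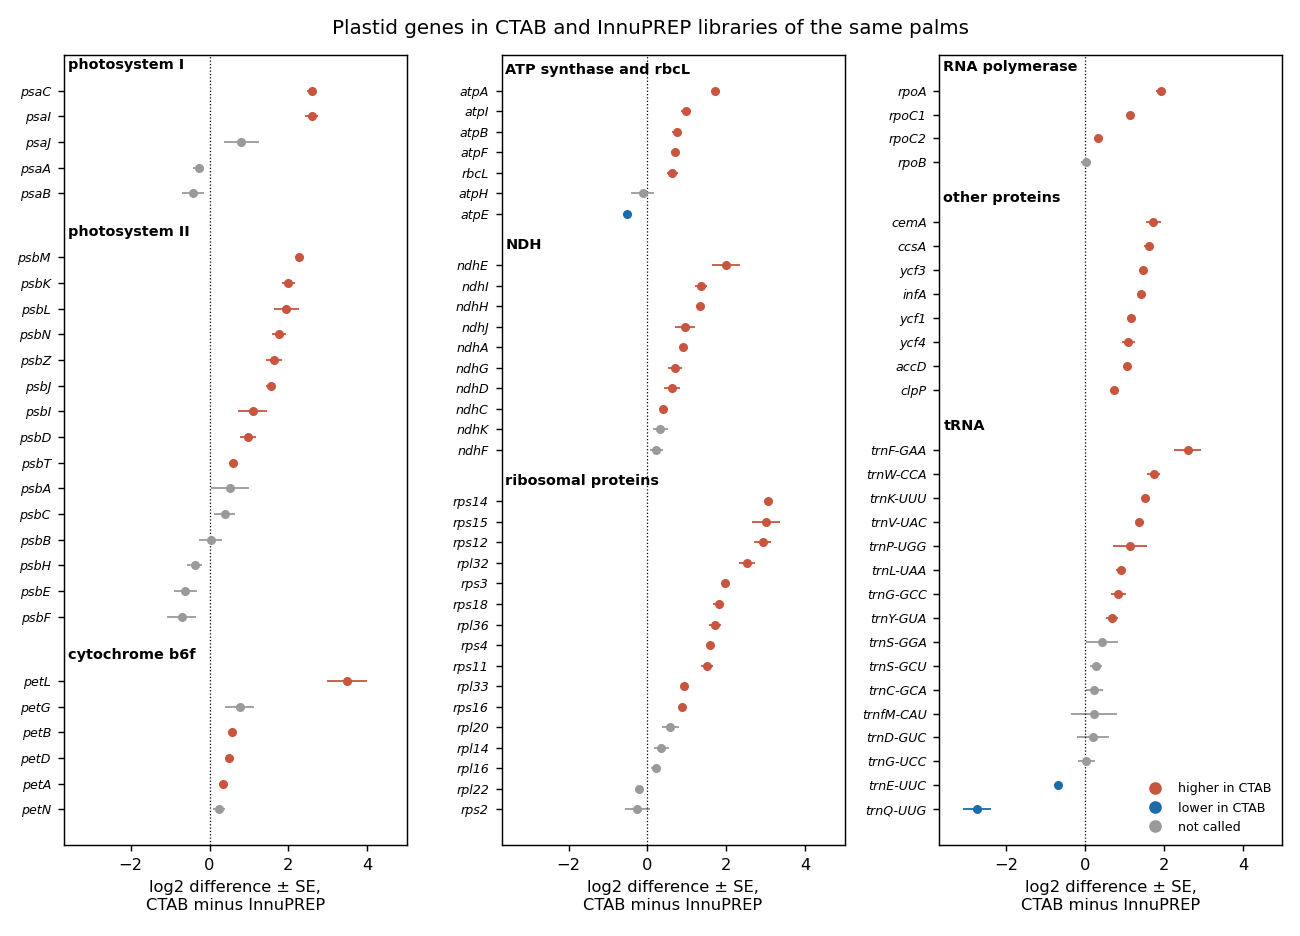
Log2 difference, CTAB minus InnuPREP, with its SE from edgeR, for plastid genes tested, sorted within 9 lists. Ribosomal protein genes shown range from -0.26 (rps2) to 3.06 (rps14) and photosystem genes from -0.71 (psbF) to 2.59 (psaC and psaI), and 3 genes are lower in CTAB.

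Photosynthesis genes were split, as ribosomal protein genes were. Of all plastid genes tested 67% were higher in CTAB, with a median of 0.90. Of 5 photosystem I genes, 2 were higher in CTAB and 3 not called, with a median of 0.81. The iron-sulphur subunit gene psaC stood at 24.3, 54.1, 56.7, 36.9, 52.3 and 79.9 CPM in CTAB and at 3.52, 7.78, 10.7, 6.95, 11.3 and 9.86 CPM in InnuPREP libraries. For the small subunit gene psaI, CTAB libraries held 28 to 62.9 CPM and InnuPREP libraries 3.13 to 17.2 CPM. Groups were apart for both, and both differences were 2.59 on the log2 scale. The 2 reaction centre genes psaA and psaB were at -0.27 ± 0.14 and -0.41 ± 0.28 and not called (edgeR adjusted p = 0.11 and 0.262). The small subunit gene psaJ was not called either, at 0.81 ± 0.45 (edgeR adjusted p = 0.19), with -0.94 in palm 1.

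Photosystem II was also split, with 9 of 15 genes higher (60%), 0 lower and 6 not called, and a median of 0.98. These values lay near those of all plastid genes tested, 67% and 0.90. The small subunit genes psbM, psbK and psbL led, at 2.28 ± 0.1, 2 ± 0.17 and 1.95 ± 0.32 (edgeR adjusted p = 3.18e-12, 1.37e-08 and 4.16e-05). Reads of psbL were few, 182 in all CTAB libraries and 89 in all InnuPREP libraries. In palm 3 psbM reached 98.8 CPM in CTAB against 23.1 CPM in InnuPREP, and in palm 1 it was 26.6 against 5.47 CPM. The 6 genes not called were psbA, psbB and psbC, which encode the D1 protein and the inner antenna proteins, and psbE, psbF and psbH. Their differences ran from -0.71 for psbF to 0.51 for psbA. The core gene psbD, in contrast to psbA, psbB and psbC, was higher by 0.98 ± 0.21 (edgeR adjusted p = 0.00402). SEs were wider for several of the genes not called, 0.48 for psbA and 0.29 for psbB, and 5 of 6 palms had more psbA in CTAB.

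Of 6 cytochrome b6f genes 4 were higher, with a median of 0.53. The b6 gene petB, at 3297 ± 1163 CPM against 2226 ± 768 CPM, and petD, for subunit IV, differed by 0.56 ± 0.08 and 0.5 ± 0.11, in 6 of 6 palms each. The small subunit gene petL was at 3.49 ± 0.51 but rested on 85 reads in all CTAB libraries and 12 in all InnuPREP libraries. It passed the filter through its CTAB libraries alone, so its p-value is not given. Of 10 tested genes of the NDH complex, which carries electrons around photosystem I, 8 were higher and 0 lower, with a median of 0.80. The largest differences were those of ndhE at 1.99 ± 0.36, ndhI at 1.35 ± 0.15 and ndhH at 1.34 ± 0.1. That of ndhE rested on 102 reads in all CTAB libraries and 46 in all InnuPREP libraries, with overlap. Like petL, ndhE passed the filter through its CTAB libraries alone, so its p-value is not given.

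Among ATP synthase genes and rbcL, the gene of the large Rubisco subunit, 5 of 7 were higher and 1 lower, with a median of 0.69. The alpha subunit gene atpA stood apart, at 130, 370, 343, 257, 259 and 483 CPM in CTAB and 57.1, 87.6, 124, 80.6, 65.3 and 129 CPM in InnuPREP libraries, a difference of 1.72 ± 0.11 (edgeR adjusted p = 3.53e-10). The lowest CTAB value, in palm 1, was only just above the highest InnuPREP value, in palm 6. The most abundant plastid gene of all, atpF, was at 7446 ± 2210 CPM against 4530 ± 1053 CPM, higher in CTAB in 6 of 6 palms by 0.69 ± 0.09. The epsilon subunit gene atpE went the other way, at 2380 ± 725 CPM against 3519 ± 1325 CPM, a difference of -0.52 ± 0.1 (edgeR adjusted p = 0.000258). It was lower in CTAB in palms 2 to 6 and not in palm 1, where it was 1653 CPM against 1586 CPM.

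Of 16 plastid tRNA genes tested, 8 were higher, 2 lower and 6 not called, with a median of 0.55. The counts of this list were dominated by trnL-UAA, a leucine tRNA gene with an intron, at 4607 ± 831 CPM against 2510 ± 777 CPM, higher in CTAB in 6 of 6 palms by 0.91 ± 0.12 (edgeR adjusted p = 7.13e-06). The phenylalanine tRNA gene trnF-GAA was higher by 2.6 ± 0.34 and the tryptophan tRNA gene trnW-CCA by 1.73 ± 0.16. For trnF-GAA this rested on 144 reads in all CTAB libraries, 57 of them in palm 1, and 42 in all InnuPREP libraries. That gene passed the filter on low counts only because of its CTAB libraries, where it is high, so its p-value is not given. The glutamate tRNA gene trnE-UUC was lower in every palm, by a log2 difference of -0.7 ± 0.1 (edgeR adjusted p = 5.72e-06), at 55.7 ± 25.6 CPM against 92.1 ± 42.7 CPM.

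The glutamine tRNA gene trnQ-UUG showed the largest fall of any plastid gene tested. It had 9, 0, 3, 2, 4 and 3 reads in the CTAB libraries of palms 1 to 6 and 60, 26, 33, 23, 73 and 27 reads in the InnuPREP libraries. The groups did not overlap, while mean gene counts were 5934010 in CTAB and 12657736 in InnuPREP libraries. The fitted difference was -2.74 ± 0.36. The gene passed the filter on low counts through its InnuPREP libraries alone, where it is high, so its p-value is no support and is not given. It was the 1 plastid gene whose CTAB libraries all lay below the InnuPREP libraries.

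Some genes side by side on the plastid genome differed from each other within the same palm. Neighbours here are genes next to each other in the EG11 table, pairs were chosen after their values had been seen, and no test was made. Between rps14 and the adjacent psaB the log2 ratios differed by 3.49 ± 1.02 (SD, n = 6), from 2.18 in palm 1 to 5.26 in palm 6. The tightest contrast was that of rps3 with rpl22, at 2.17 ± 0.24, from 1.82 to 2.44 over the palms. For psbL and psbF the gap was 2.67 ± 1.09, positive in 6 of 6 palms. Other neighbours were closer or less regular. The log2 ratio of psaA minus that of psaB was 0.15 ± 1.11, above 0 in 4 of 6 palms, and that of rps15 minus that of ndhH was 1.65 ± 1.06, with -0.26 in palm 6.

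The gap between atpB and atpE, 1.26 ± 0.72, was positive in 5 palms and -0.06 in palm 1, and these 2 genes overlap in the table, so reads in the shared part are uncertain. The tRNA genes trnY-GUA and trnE-UUC, which lie next to each other, differed by 1.37 ± 0.34, positive in 6 of 6 palms, although trnY-GUA was higher and trnE-UUC lower in CTAB. Whether counting used strand was not given in the sources used here, so genes that overlap on opposite strands may share reads.

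**Figure D3:**
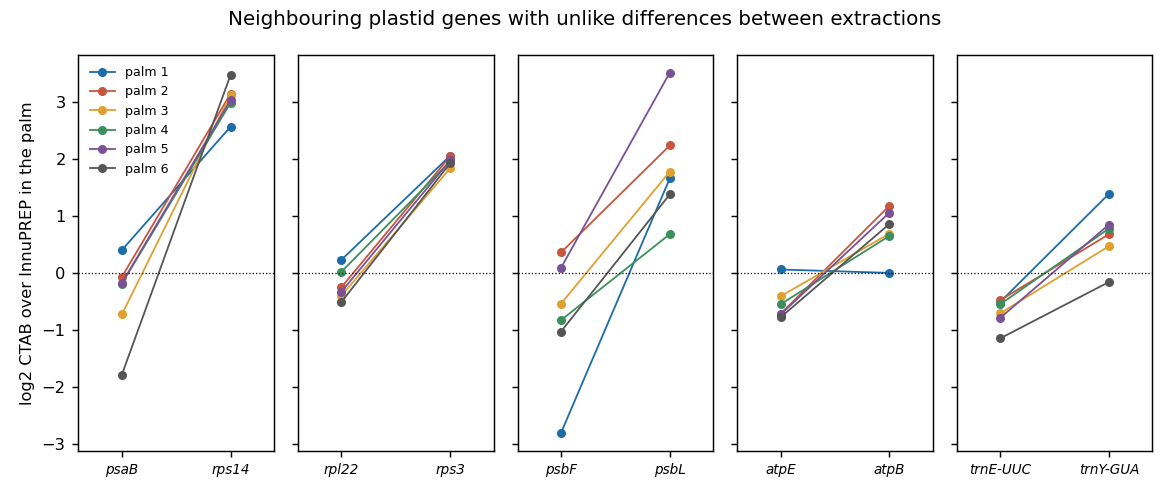
Log2 ratio of CTAB to InnuPREP CPM in each palm (lines joining 2 adjacent plastid genes) for 5 pairs chosen after their values were seen. The gene on the right has the higher ratio in 6 of 6 palms in each panel except that of atpE and atpB, where palm 1 is level at a difference of -0.06.

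Reads assigned to nuclear TRNA rows were few in every library. Each of the 46 rows, named by amino acid and anticodon, gathers more than 1 tRNA gene of the EG11 table, so a row is not a single gene. Together the 46 rows took 0.0156%, 0.05%, 0.0498%, 0.0231%, 0.0594% and 0.0741% of gene counts in CTAB libraries and 0.00314%, 0.0176%, 0.0225%, 0.0107%, 0.0262% and 0.0239% in InnuPREP libraries. The groups overlapped, since palms 1 and 4 were low with both methods, but every palm was higher in CTAB (0.0453% ± 0.0221 against 0.0173% ± 0.00886, exact paired permutation test, p = 0.03125, adjusted p = 0.0344). As a share of all reads in the table the difference was 0.0114 percentage points, with a ratio of the means of 1.87 (exact p = 0.03125). The 2 palms low with both methods are the high palms of Jen Avros and Jen Avros Yangambi genotype.

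Of the 46 rows, 31 had more reads in the CTAB libraries in total, although those held 35604058 gene counts and the InnuPREP libraries 75946418. The filter on low counts passed 18 rows, of which 15 were higher in CTAB, 0 lower and 3 not called, with a median log2 difference of 2.35 beside -0.03 for all genes. Some of these passed through their CTAB libraries alone, so nothing is read from that count and median. With no filter 20 rows were higher and 0 lower, with a median of 1.73. With a CPM of at least 1 required in 6 libraries 9 were higher, with a median of 1.79. The 6 CTAB libraries can meet that last filter alone, so nothing is read from it either. The row TRNAP-AGG, of proline tRNAs, had 72, 208, 147, 82, 148 and 402 reads in CTAB libraries and 2, 7, 4, 3, 6 and 10 reads in the InnuPREP libraries, which were the deeper ones. Its smallest CTAB count exceeded its largest InnuPREP count several times over. The fitted difference was 5.83 ± 0.18, at 31.6 ± 29.3 CPM against 0.519 ± 0.396 CPM. TRNAL-AAG (leucine) and TRNAS-CGA (serine) were also apart, with differences of 3.6 ± 0.34 and 3.31 ± 0.3. TRNAP-AGG, TRNAL-AAG and TRNAS-CGA passed the filter through their CTAB libraries alone, where they are high. Their p-values are therefore no support and are not given. TRNAK-CUU (lysine) was higher by 1.68 ± 0.32 in 5 of 6 palms, with overlap.

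A single row, TRNAF-GAA of phenylalanine tRNAs, held most of the class. It made up 79.5% ± 8.39 of nuclear TRNA counts in CTAB and 92.3% ± 3.75 in InnuPREP libraries, and was lower as a share in CTAB in every palm. Its own difference, 0.98 ± 0.11 (edgeR adjusted p = 6.4e-07), at 330 ± 157 CPM against 179 ± 96.3 CPM, was smaller than that of the other 14 called rows. Some of those 14 passed the filter through their CTAB libraries alone. Without it the class took 0.00977% ± 0.00798 of gene counts in CTAB and 0.00134% ± 0.0011 in InnuPREP libraries, a ratio of 7.31, against 2.62 with it. The 28 rows not tested had at most 44 reads in all.

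**Figure D4:**
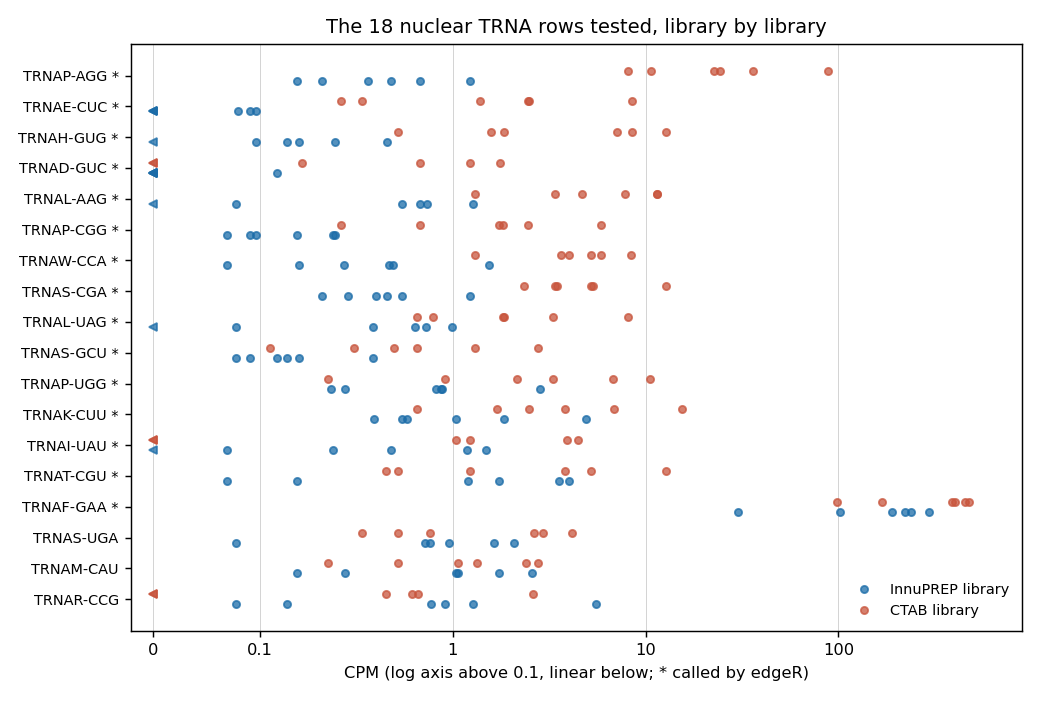
CPM of the 18 nuclear TRNA rows tested in each of the 12 libraries, on a log axis above 0.1, with triangles for libraries at 0; rows are sorted by their log2 difference. TRNAP-AGG lies at 8.13 to 87.8 CPM in CTAB and 0.156 to 1.23 CPM in InnuPREP, while TRNAF-GAA is far more abundant than the other rows and its groups overlap.

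Nuclear genes differed according to their abundance. The 20697 nuclear genes tested were divided into 5 equal classes by mean log2 CPM over the 12 libraries. From the least to the most abundant class, 576, 1054, 1333, 1366 and 859 genes were higher in CTAB and 570, 888, 1057, 1299 and 2119 were lower. The median log2 differences were 0.01, 0.04, 0.06, 0.01 and -0.25, the last turning to 0.02 when scaled by library totals. The most abundant class thus stood apart from the other 4, in every palm: its median was between -0.29 and -0.20 in the 6 palms, and that of the middle class between 0.04 and 0.09.

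The shift grew towards the top. Among the 1000 most abundant nuclear genes 122 were higher and 666 lower, with a median of -0.48. Among the top 100, 3 were higher and 86 lower, with a median of -0.71, and among the top 10, 1 was higher and 9 were lower, with a median of -0.76. The direction within the top class as a whole depended on scaling. Scaled by library totals alone, the median of all genes moved from -0.03 to 0.25, and the class had 1492 genes higher and 1321 lower with a median of 0.02, while the top 100 still had 5 higher and 69 lower. By the same change of scaling, the calls over all genes became 8599 higher and 3326 lower.

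**Figure D5:**
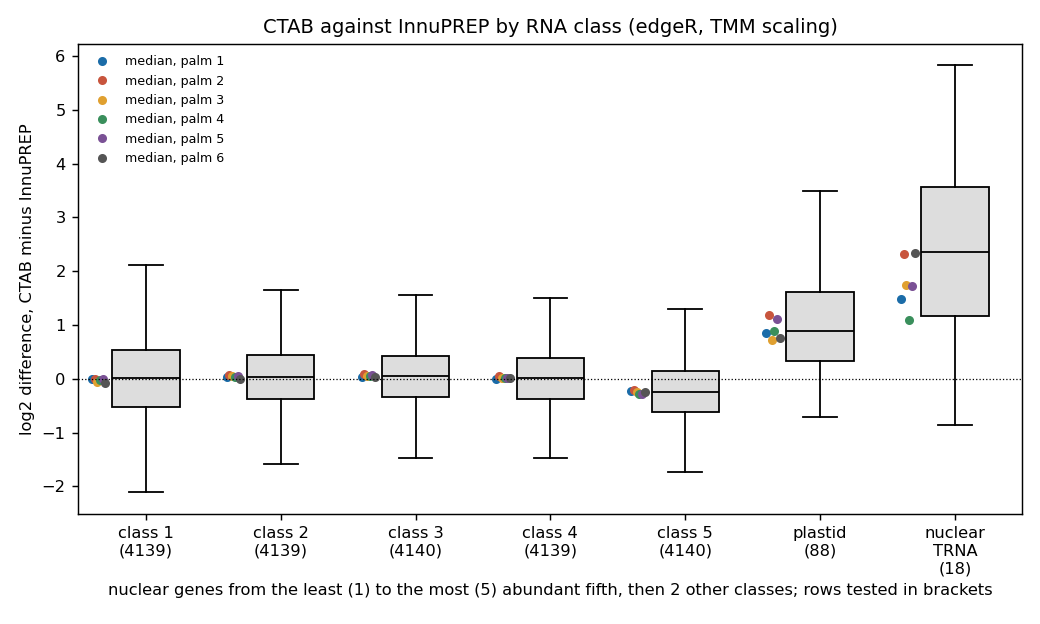
Log2 difference, CTAB minus InnuPREP, for nuclear genes in 5 abundance classes, plastid genes and nuclear TRNA rows (boxes, median and quartiles; whiskers to the farthest gene within 1.5 times the quartile range; genes beyond not drawn), with the median in each palm as points, which are taken over log2 CPM and lie below the fitted median where counts are low. Class 5 has a median of -0.25 (0.02 when scaled by library totals), plastid genes 0.90 and nuclear TRNA rows 2.35 (1.73 with no filter on low counts).

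Shares of counts need no such scaling. The 10 most abundant nuclear genes of each library took 5.32% to 6.44% of nuclear gene counts in CTAB and 7.42% to 10.3% in InnuPREP libraries, without overlap. The 100 most abundant took 19.4%, 20.4%, 18.5%, 16.7%, 19.8% and 17.2% in CTAB and 25.3%, 25.4%, 24.3%, 23.1%, 27.4% and 22.3% in InnuPREP libraries. Both shares were lower in CTAB in all 6 palms (exact paired permutation test, p = 0.03125, adjusted p = 0.0344 for each), with means of 18.7% ± 1.46 and 24.6% ± 1.83 for the top 100. The 3 least abundant classes together took 11.5% ± 1.03 of gene counts in CTAB and 9.31% ± 0.794 in InnuPREP libraries, higher in 6 of 6 palms with the same exact p. As a share of all reads in the table, unassigned reads included, that last difference turned to -0.55 percentage points (exact p = 0.15625).

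The number of genes seen was close between methods. At an equal depth of 4215872 gene counts, 22079 ± 235 genes had at least 1 read in CTAB and 22054 ± 150 in InnuPREP libraries, higher in CTAB in 4 of 6 palms, and the difference of 25.7 genes did not pass the exact paired permutation test (p = 0.5, adjusted p = 0.5). With at least 5 reads, 19389 ± 280 and 19003 ± 252 genes were seen, with more in CTAB in 6 of 6 palms (exact p = 0.03125, unadjusted). Of the 27986 rows, 7 had no read in the 6 InnuPREP libraries and at least 10 over the CTAB libraries, and 53 had the reverse, beside 2430 with no read at all; these rows were counted at full depth, with 35604058 gene counts in CTAB and 75946418 in InnuPREP libraries.

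By gene type, long non-coding RNA genes had the higher median. Of 573 tested, 169 were higher and 83 lower, with a median of 0.24, against 4622 higher and 5483 lower of 18625 protein-coding nuclear genes, with a median of -0.04. Their medians from the least to the most abundant class were 0.33, 0.27, 0.24, 0.05 and -0.16, and those of protein-coding genes -0.04, 0.03, 0.06, 0.02 and -0.25. In class 4, the second most abundant, the palm medians of long non-coding genes were above those of protein-coding genes in palms 4 and 6 only, at 0.17 and 0.06 against 0.01 and 0.02. In class 5 palm 1 went the other way, at -0.38 against -0.23, and the difference between the gene types was not tested. Of 105 pseudogenes, 22 were higher and 25 lower, and of 177 rows of the type misc_RNA, 48 were higher and 37 lower.

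Few nuclear genes carry a symbol, and 15 of these were tested. Of them 2 were higher in CTAB, 8 lower and 5 not called, beside 25.3% higher and 28.5% lower over all genes tested. GSK stood at 31.8, 55.2, 27.8, 18.3, 32.2 and 47.8 CPM in CTAB and at 20.6, 10.8, 7.75, 6.88, 11.2 and 10.2 CPM in InnuPREP libraries. It was higher in CTAB in every palm, by 1.64 ± 0.2 (edgeR adjusted p = 1.57e-05), and overlapped only through palm 1 in InnuPREP and palm 4 in CTAB. GPAT, a glycerol-3-phosphate acyltransferase of glycerolipid synthesis, was higher in 6 of 6 palms by 0.51 ± 0.1 (edgeR adjusted p = 0.000343).

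The 8 genes lower in CTAB were so in 6 of 6 palms each. All 8 belonged to the most abundant nuclear class, in which 51.2% of genes were lower, so their direction is not particular to them. PTE, which in oil palm denotes a palmitoyl-ACP thioesterase that releases palmitate, had 40 ± 12.6 CPM against 84 ± 30.8 CPM, a difference of -1.03 ± 0.1 (edgeR adjusted p = 5.96e-08). AHP1, a histidine phosphotransfer protein of cytokinin signalling, was the 1 symbol among them whose groups were apart, at 50.6 to 85.6 CPM in CTAB and 91.4 to 165 CPM in InnuPREP libraries, a difference of -0.8 ± 0.1. DRM, GST (a glutathione S-transferase), HCS and ADPRF (an ADP-ribosylation factor) were at -0.88, -0.78, -0.77 and -0.64, with edgeR adjusted p-values of 1.64e-07, 3.61e-07, 6.69e-05 and 8.4e-06. IAA1, an Aux/IAA repressor of auxin signalling, was at -0.47 and TCTP, the translationally controlled tumour protein, at -0.3 (edgeR adjusted p = 0.000121 and 0.00717). TCTP lost its call when scaled by library totals, at -0.02. CPRF, CPRZ, GLO2, DEF1 and CHI2 were not called, at -0.07, 0.22, 0.29, 0.37 and -1.2.

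The nuclear genes without a name included larger differences than these. LOC105057176 stood at 2166, 2820, 1290, 804, 2146 and 1902 CPM in CTAB and at 164, 158, 96.6, 75, 185 and 125 CPM in InnuPREP libraries, a difference of 3.75 ± 0.11 (edgeR adjusted p = 1.7e-15). In the opposite direction, LOC105051136 stood at 42.2, 31.9, 32.5, 45, 46.8 and 33.9 CPM in CTAB and at 368, 573, 730, 689, 414 and 552 CPM in InnuPREP libraries, a difference of -3.8 ± 0.19 (edgeR adjusted p = 2.34e-08). Both had groups far apart. The lower group ran from 75 to 185 CPM for LOC105057176 and from 31.9 to 46.8 CPM for LOC105051136. LOC105037779 was higher by 4.22 ± 0.28 and LOC105059678 lower at -3.75 ± 0.24, at lower levels of 13.5 ± 10.7 against 0.683 ± 0.534 CPM and 0.705 ± 0.25 against 9.43 ± 1.11 CPM. LOC105037779 passed the filter on low counts only because of its CTAB libraries, and LOC105059678 only because of its InnuPREP libraries, where each is high. Their p-values are therefore no support and are not given.

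Reads not assigned to a gene moved with the extraction as well. Reads outside genes made up 15.1% to 19.8% of all reads in CTAB tables and 9.40% to 10.7% in InnuPREP tables, without overlap. Reads with several alignments made up 24.9% ± 5.77 and 13.5% ± 3.48, higher in CTAB in 6 of 6 palms with overlap, since palm 1 in CTAB (17.1%) was below palm 6 in InnuPREP (19.8%). Reads over more than 1 gene were lower in CTAB in 6 of 6 palms, at 0.26% ± 0.0326 against 0.606% ± 0.134, without overlap. Each passed the exact paired permutation test at p = 0.03125 (adjusted p = 0.0344). The part of these reads, and of the lower depth, in the differences between genes was not tested.

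Whether the extraction difference itself varied with embryogenesis group was asked by an interaction term for high palms against zero and low palms together. In edgeR 0 of 20803 genes were called (0%), and the smallest adjusted p was 0.213. Before adjustment 1915 genes had a p below 0.05, among them 25 of 88 plastid genes and 0 of 18 nuclear TRNA rows. Without palm 4 or palm 1 the high group is a single palm, whose spread is taken to be that of the other groups. Then 922 genes were called without palm 4 and 1 without palm 1, and 1 was called without palm 6.

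Set beside the rest of the series, the CTAB libraries of these palms shared some features with the 32 CTAB libraries of agency L1, which came from other palms and had longer reads per the labels. Plastid shares had a median of 6.50% in the 6 L2 CTAB libraries, 11.4% in the L1 CTAB libraries (range 3.87% to 15.5%) and 3.06% in the 14 InnuPREP libraries of other L2 palms (1.64% to 4.69%). Reads outside genes had medians of 18.8%, 18.2% and 9.49%. The rps14 share of plastid counts had medians of 4.65%, 10.2% and 1.03%, and no InnuPREP library, of these 6 palms or of the other 14, reached the lowest CTAB library of either agency (1.90% at most against 3.88% at least). TRNAP-AGG had medians of 25.2, 12.9 and 0.37 CPM without TMM scaling, but 1 or more L1 libraries went down to 0.477, within the InnuPREP range. Agency, palm and method cannot be told apart in the L1 libraries, and these values were compared without a test.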

How the data were processed

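The authors deposited whole-number read counts per gene for each library, not normalized. The submitters' processing notes name STAR 2.7.2b, HTSeq 0.11.2 and bcl2fastq. Settings, genome build and strand use are not given in the sources used here. A table had 27986 gene rows, and its 5 closing summary lines entered no library size and no test. Of the 27986 identifiers, 25047 were found in the EG11 gene table, used for names, gene type and neighbours only.

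CTAB and InnuPREP libraries of 6 palms were compared in R 4.3.3 with edgeR 4.0.16 (filterByExpr, TMM, robust glmQLFit and glmQLFTest, palm as block), with p-values adjusted by Benjamini and Hochberg over all 20803 genes tested. The palm label pairs the libraries: after the mean of each method was taken off, libraries of 1 palm correlated at 0.68 to 0.81 and those of different palms at 0.24 or less. No pair among the 12 libraries held identical values. SEs were derived from the log2 difference and the F statistic, and 2 was the prior count for log2 CPM. Library shares were compared by two-sided exact paired permutation tests, where 6 palms allow no p below 0.03125. Single seeded thinning gave each library 4215872 gene counts. On simulated counts with 200 of 20573 genes changed, this fit recovered 88% of 2-fold and 97% of 4-fold changes with 25 false calls. How the fit performs where far more genes differ was not tested, and 11198 of 20803 were called here.

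Alternatives used RLE factors, library totals, scaling without plastid and TRNA rows, other filters, DESeq2 1.42.0, limma-voom 3.58.1, no block, thinning, and each palm left out. Precision is limited by depth, 4215872 to 14661769 gene counts, and by 6 palms. Reads carry no molecular identifiers as far as the labels say.

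The palms, gene lists and tests were chosen with earlier results of these data known. Named genes were all tested nuclear symbols, up to 3 called genes of largest difference in each plastid list, every plastid gene lower in CTAB, the 5 most abundant plastid genes and TRNA rows, and 2 unnamed identifiers in each direction that moved alike in all palms. Other plastid genes and TRNA rows named were chosen after their values were seen. A plastid gene that enters the counts and medians is not reported here by name. Lists by product name and cell type markers could not be matched and were not used.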

Additional observations from a re-analysis of the deposited data

Results flagged for a closer look

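In 134 groups of 6 libraries, each holding a library measure or a named gene with 1 method, the gap between the highest or lowest library and its nearest neighbour was set against Dixon's 95% critical value for 6 samples. Chance alone flags about 1 group in 20, and 9 were flagged. Each library that stood apart was the highest of its 6.

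Palm 6 stood apart in 5 of them. In InnuPREP libraries its plastid tRNA share was 0.619%, with the others between 0.272% and 0.397%, and its TRNAK-CUU level was 4.93 CPM, with the others between 0.391 and 1.84 CPM. TRNAS-CGA stood at 1.23 CPM in its InnuPREP library (others 0.209 to 0.547 CPM) and at 12.7 CPM in its CTAB library (others 2.35 to 5.37 CPM). TRNAP-AGG stood at 87.8 CPM in its CTAB library, with the others between 8.13 and 36.1 CPM. Palm 6 also had the smallest gene count and the largest share of reads with several alignments with both methods, and the part of these in its tRNA values was not tested. With any 1 palm left out, the nuclear TRNA share of gene counts, which needs no filter, was higher in CTAB by 0.0236 to 0.0311 percentage points on average.

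Palm 1 stood apart in InnuPREP libraries for GSK, at 20.6 CPM (others 6.88 to 11.2 CPM), for GLO2, a B-class MADS-box gene, at 4.85 CPM (others 1.46 to 2.40 CPM), and for the plastid gene trnF-GAA, at 1.72 CPM (others 0.246 to 0.577 CPM). Palm 2 stood apart in CTAB libraries for PTE, at 64.5 CPM (others 28.6 to 40 CPM).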

How the results depend on the processing

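Of 354 recomputed counts, medians and shares, 312 stayed within 1.5 times the reported count, within 1 SD of the palm values (medians, and shares with a palm left out, with no test) or on the same side of their test, under RLE factors, library totals, scaling without plastid and TRNA rows, 2 other filters, DESeq2, limma-voom, no block, thinning and each palm left out; the others follow. The cause of these changes was not tested.

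Scaled by library totals, 8599 genes were higher and 3326 lower in CTAB. The most abundant nuclear class then had 1492 higher and 1321 lower, and long non-coding genes 269 and 43. Medians became 0.25 for all genes, 1.17 for plastid genes, 0.02 and 0.34 for the most abundant and middle nuclear classes and 0.51 for long non-coding genes, and CPRF turned to 0.2, not called. With no filter, medians were -0.06 for all genes and 1.73 for TRNA rows. At a CPM of at least 1 in 6 libraries, where fewer TRNA rows are tested, 9 were higher, with a median of 1.79. The 6 CTAB libraries can meet this filter alone, so nothing is read from these values. Against a minimum of 2-fold, 471 genes were called, 271 higher and 200 lower.

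Without the palm as a block (the labels pair the libraries), 2875 genes were called, 1594 higher and 1281 lower. Plastid genes lower fell to 1, TRNA rows higher to 4 with a median of 3.25, the most abundant class to 237 higher and 577 lower, and long non-coding genes to 51 and 13.

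With abundance taken from the other L2 InnuPREP libraries, the most abundant class had 562 genes higher and a median of -0.36. Taken from the L1 CTAB libraries, its median was -0.15. As a share of all reads, the plastid difference was 1.12 percentage points and the nuclear TRNA difference 0.0114, and the plastid tRNA difference was 0.164 percentage points (exact p = 0.0625), and that of the lowest 3 classes turned to -0.55. Genes with at least 5 counts after thinning differed by 386. GLO2, not called, turned to -0.06 when thinned.

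With each palm left out, 9775 to 11717 genes were called, plastid genes lower numbered 3 to 5, TRNA rows lower 0 to 1, and interaction calls 0 to 922, the last without palm 4. Medians ran from -0.03 to -0.01 for all genes and from 0.05 to 0.09 for the middle class, and CPRF from -0.2 to 0.02. With 5 palms no exact paired test can go below 0.0625.

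Of 829 values for 56 named genes, 804 kept direction and call, 21 lost the call, 1 gained it and 3 turned. All 51 called genes kept their direction.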
